A study of Homo sapiens with 3 samples.

Results

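The genes described here are the epithelial NADPH oxidases and their subunits, 7 of the 60664 genes in the deposited count table. They were chosen by symbol and are the catalytic NOX1, its membrane partner CYBA (p22phox), its cytosolic organizer NOXO1 and activator NOXA1, the dual oxidases DUOX1 and DUOX2, and the DUOX2 maturation factor DUOXA2. All 7 matched a row. Levels are given as CPM, the count of a gene relative to the total of its library after scaling. Genes at 1 CPM or more in any library were taken as measured, which held for 3 of the 7, namely NOX1, CYBA and NOXA1. The other 4 stayed under 20 counts in all 3 libraries and are flagged as low.

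NADPH oxidases pass electrons from NADPH across a membrane to oxygen and are enzymes whose main product is a reactive oxygen species. NOX1, known from colon epithelium, makes superoxide once it sits with CYBA in the membrane and is joined by NOXO1, NOXA1 and the small GTPase RAC1. The dual oxidases release hydrogen peroxide, need a maturation factor to leave the endoplasmic reticulum, and are known in the gut for their induction by bacteria and inflammation.

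The cells were Caco-2, an established human colon carcinoma line that is often grown as a model of intestinal epithelium, labelled wild type in all groups. Cells of the first group received 30 µM polydatin (a glucoside of resveratrol) for 2 h, followed by 3% dextran sulfate sodium (DSS, a sulfated polysaccharide used to provoke colitis in rodents) for 8 h together with polydatin. The second group received 3% DSS for 8 h, and the third was untreated control. Each group was 1 RNA-seq library, so there are no replicates and no test of the conditions. Every ratio compares libraries, and its exact 95% Clopper-Pearson interval covers counting error only. Groups with erastin or Fer-1 that the design mentions were not analysed here, and there was no library with polydatin alone among those analysed.

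The libraries held 16667622 counts for DSS with polydatin, 18825914 for DSS and 18695613 for control, and 1 CPM corresponded to 17.4, 18.5 and 18.2 counts in that order. Markers of the labelled cell type were present: 8 of 10 epithelial markers were measured, with a summed level of 6544 CPM in DSS with polydatin, 8196 in DSS and 6925 in control. CDX1 was at 0 in all 3 libraries and KRT20 held 8, 9 and 10 counts in the same order. In bulk RNA, fewer cells of a type and less RNA per cell cannot be told apart.

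To show the sequence next to the starts of the genes that the results turn on, stretches of the RefSeq promoter windows of NOX1, NOXA1 and CYBA that lie outside annotated exons are given 5′ to 3′ on each gene's own strand (RefSeq, GRCh38.p14), with a short stretch beside DUOXA2. The NOX1 stretch reaches the RefSeq start, while those of NOXA1 and CYBA end at the first annotated exon in GENCODE, which begins upstream of the RefSeq start. Capitals mark matches to the 8 motifs that were searched on both strands. For factors of the stress and inflammatory responses, AP-1 was searched as TGANTCA, the antioxidant response element core as TGACNNNGC, a loose NF-kB pattern as GGGNNNNCC and the STAT pattern as TTCNNNGAA. The cyclic AMP response element core was searched as TGACGT. For factors of the gut epithelium, GATA factors were searched as AGATAA and CDX factors as TTTATNG. The TATA box was searched as TATAAA. The stretches lie at chrX:100874360-100874609 on the minus strand, chr9:137423263-137423349 on the plus strand, chr16:88651153-88651303 on the minus strand and chr15:45114281-45114310 on the plus strand.
NOX1: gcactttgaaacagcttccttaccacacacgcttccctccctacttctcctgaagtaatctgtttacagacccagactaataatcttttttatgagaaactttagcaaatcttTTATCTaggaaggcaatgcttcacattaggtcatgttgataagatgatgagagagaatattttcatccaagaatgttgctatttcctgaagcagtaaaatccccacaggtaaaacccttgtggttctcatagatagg
NOXA1: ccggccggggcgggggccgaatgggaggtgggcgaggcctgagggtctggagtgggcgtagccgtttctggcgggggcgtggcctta
CYBA: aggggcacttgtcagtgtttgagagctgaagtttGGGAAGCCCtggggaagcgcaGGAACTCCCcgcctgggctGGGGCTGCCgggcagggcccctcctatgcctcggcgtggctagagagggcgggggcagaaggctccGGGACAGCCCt
DUOXA2: tcgcccacgctgCTATAAAaggggtcccgc

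The 4 stretches differ in composition, with a GC content of 38.4% for NOX1, 74.7% for NOXA1, 68.2% for CYBA and 63.3% for DUOXA2. In the full window of 300 bases around each start (250 before, 50 after), NOX1 had a lower GC content than all but 11.8% of the 35116 promoter windows, while NOXA1 was above 95.1% and CYBA above 85.7% of them. The NOX1 window held 1 match, to AGATAA, which 10.3% of all windows hold. CYBA held 5 matches to GGGNNNNCC, 2 of them overlapping, a pattern found in 52.8% of windows. At DUOXA2, TATAAA (in 11.5% of windows) overlapped a match to TTTATNG (in 9.73%). The RefSeq starts of DUOXA2 and DUOX2 lie 154 bases apart on opposite strands, so the 2 genes are transcribed away from each other. In GENCODE the 2 genes overlap at their starts and share 24 exon bases. The DUOXA2 stretch thus lies within the DUOX2 gene as GENCODE annotates it. A match describes the letters in the window and no more.

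NOX1 was lower in DSS-treated cells that also received polydatin. NOX1 (ENSG00000007952, minus strand of chromosome X, 100843324 to 100874345 on GRCh38) had 606 counts in DSS with polydatin, 1172 in DSS and 988 in control. On the CPM scale these were 34.8 (exact 95% Poisson interval 32.0 to 37.6) in DSS with polydatin, 63.3 (59.7 to 67.0) in DSS and 54.4 (51.1 to 57.9) in control. DSS with polydatin was the lowest library and DSS the highest, and no pair of the 3 counting intervals overlapped. The ratio of DSS with polydatin to DSS was 0.549 (0.497 to 0.607), a level 1.82-fold lower. Only 1.08% of the 14792 measured genes had a lower ratio in that comparison.

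A gene was called when it was measured, at least 1.5-fold apart and had an interval that excluded 1. For DSS with polydatin against DSS this held lower for 1 of the 3 measured genes, NOX1, and higher for none, against a background of 2.6% of measured genes called lower and 5.39% called higher. The call of NOX1 was kept under total-count scaling, DESeq2 size factors, thinned libraries, either filter on low counts, added counts and removal of a trend with GC content and transcript length, with log2 ratios of -0.87 to -0.78. It was lost only at a threshold of 2-fold. The summed epithelial markers stood in the same order as NOX1, lowest in DSS with polydatin and highest in DSS. KRT8 and KRT18 made up most of that sum, and they, VIL1, EPCAM and FABP1 each stood in that order. CDX2, LGALS4 and CDH1 did not, with CDH1 at 738 CPM in DSS with polydatin, 698 in DSS and 586 in control. Over the 8 measured markers the median log2 ratio of DSS with polydatin to DSS was -0.32. Of them, 1 was called lower (CDX2) and 1 higher (LGALS4, at 25 against 10 counts). LGALS4 reached 1 CPM only in DSS with polydatin, so the filter favoured a higher ratio there. The part of the markers in the NOX1 result was not tested.

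DSS alone was accompanied by a small difference in NOX1. The ratio of DSS to control was 1.16 (1.07 to 1.27), under the 1.5-fold that made a call, and 0 of the 3 measured genes were called in either direction, against 9.45% of measured genes called higher and 5.81% called lower. For DSS with polydatin against control NOX1 was at 0.639 (0.576 to 0.707). That comparison called NOX1 lower and NOXA1 higher among the 3 measured genes, beside 12.4% of measured genes called lower and 16% called higher. The NOX1 call there was lost under total-count scaling and at a log2 ratio of -0.44 after removal of a joint trend with GC content and transcript length. Each library enters 2 of the 3 comparisons, so the comparisons are not independent of each other.

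**Figure D1:**
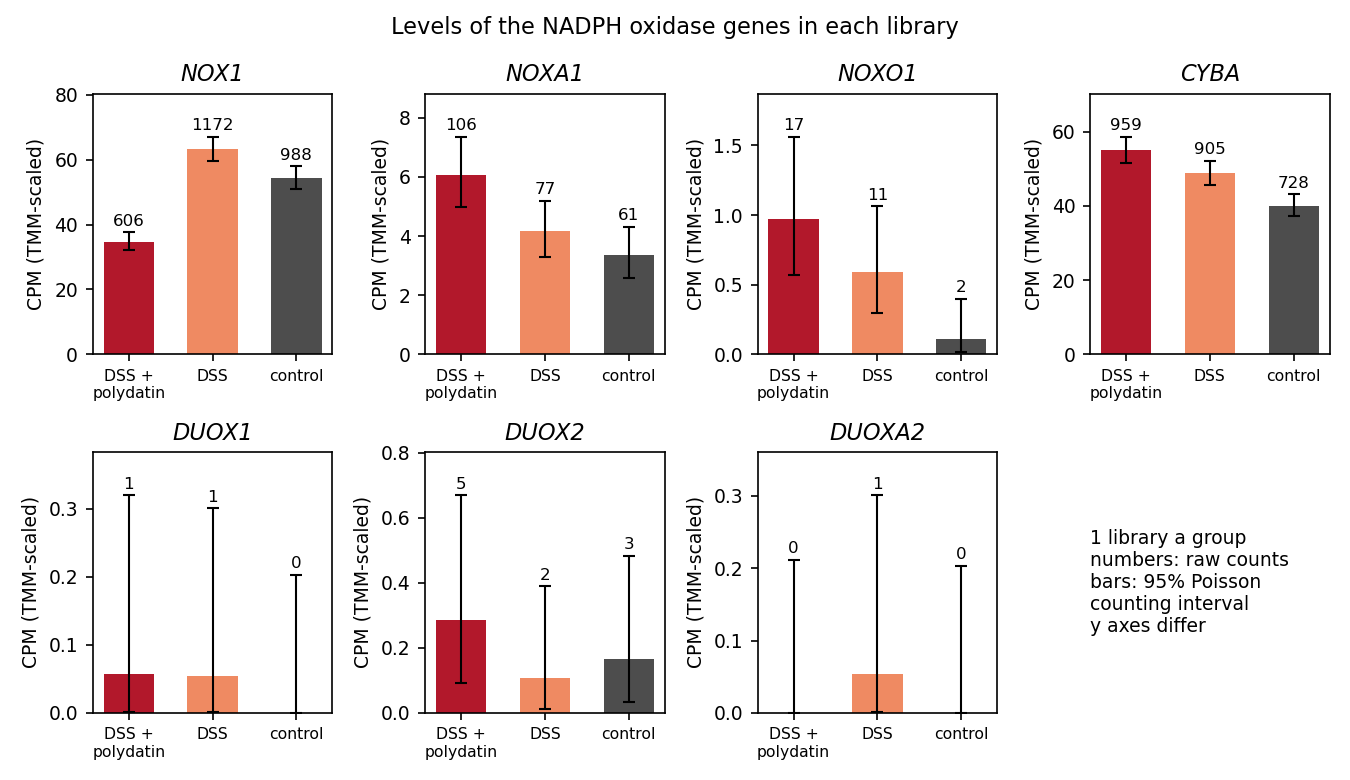
Level of each of the 7 genes in DSS with polydatin, DSS and control (CPM), as bars from 0 with exact 95% Poisson counting intervals and the raw count above each bar (the y axes differ). NOX1 is lowest in DSS with polydatin at 34.8 CPM, against 63.3 in DSS, while CYBA and NOXA1 are highest there and the intervals of the DUOX genes overlap.

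CYBA, the membrane subunit that stabilises NOX1 and several other NOX proteins, did not follow NOX1. CYBA (ENSG00000051523, minus strand of chromosome 16, 88643283 to 88651152) had 959 counts in DSS with polydatin, 905 in DSS and 728 in control, or 55.0, 48.8 and 40.1 CPM in that order. The library with polydatin was the highest and control the lowest. The ratio of DSS with polydatin to DSS was 1.13 (1.03 to 1.23), that of DSS to control 1.22 (1.10 to 1.35) and that of DSS with polydatin to control 1.37 (1.24 to 1.51). None reached 1.5-fold. With a joint trend with GC content and transcript length removed, the log2 ratio of DSS to control was 0.10 (-0.04 to 0.24) and that of DSS with polydatin to DSS 0.06 (-0.08 to 0.19), so both intervals then included 0, and that of DSS with polydatin to control was 0.16 (0.02 to 0.30), against 0.46 as measured.

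NOXA1, the activator that brings NOX1 to its active form, had its highest count with polydatin. NOXA1 (ENSG00000188747, plus strand of chromosome 9, 137423350 to 137434406) had 106 counts in DSS with polydatin, 77 in DSS and 61 in control, or 6.08, 4.16 and 3.36 CPM in that order. The ratio of DSS with polydatin to DSS was 1.46 (1.08 to 1.99), just under the fold for a call, and it was called under total-count scaling. DSS against control gave 1.24 (0.873 to 1.76), an interval that included 1, so those libraries were not told apart at this depth. DSS with polydatin against control gave 1.81 (1.31 to 2.52), called higher, but the log2 ratio was 0.86 as measured and 0.27 with the joint trend with GC content and transcript length removed, where the call was lost. NOXA1 shares 43 exon bases with ENTPD8 on the opposite strand, and the strand setting of the counting is not given in the sources used here.

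NOXO1, the organizer that holds the NOX1 complex together at the membrane, was flagged as low. NOXO1 (ENSG00000196408, minus strand of chromosome 16, 1978917 to 1984192) had 17 counts in DSS with polydatin, 11 in DSS and 2 in control, at most 0.975 CPM. The ratio of DSS with polydatin to DSS was 1.64 (0.726 to 3.88), that of DSS to control 5.39 (1.18 to 50.05) and that of DSS with polydatin to control 8.85 (2.10 to 79.0). These counts are uncertain in origin. Of the 2159 exon bases of NOXO1, 2133 lie within exons of TBL3 on the opposite strand, and TBL3 had 554 counts in DSS with polydatin, 650 in DSS and 701 in control. Reads of the 2 genes cannot be told apart if the counting ignored strand.

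The dual oxidases were at or near the detection limit. DUOX2 (chromosome 15, 45092650 to 45114344, minus strand), the dual oxidase induced in inflamed gut, had 5 counts in DSS with polydatin, 2 in DSS and 3 in control. DUOX1 (chromosome 15, 45129933 to 45165576, plus strand), the other dual oxidase, had 1 count in DSS with polydatin, 1 in DSS and 0 in control. DUOXA2 (chromosome 15, 45114321 to 45118421, plus strand) had 0 counts in DSS with polydatin, 1 in DSS and 0 in control. Taken as a one-sided limit, a count of 0 allows a level of up to 3 counts, which is 0.172 CPM in DSS with polydatin and 0.165 CPM in control. The ratio of DUOX2 between DSS with polydatin and DSS was 2.66 (0.435 to 27.9), so a difference was not detectable at this depth. No ratio is given for DUOX1 or DUOXA2, where both libraries of every comparison held 3 counts or fewer. Of the stretches of 50 bases in the longest transcripts, 7.91% in DUOX1 also occur in DUOX2, 38.5% in DUOXA2 also occur in DUOXA1, on either strand, and 9.21% in DUOX2 occur in transcripts of 574 other genes, so part of these few counts could belong to other genes.

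**Figure D2:**
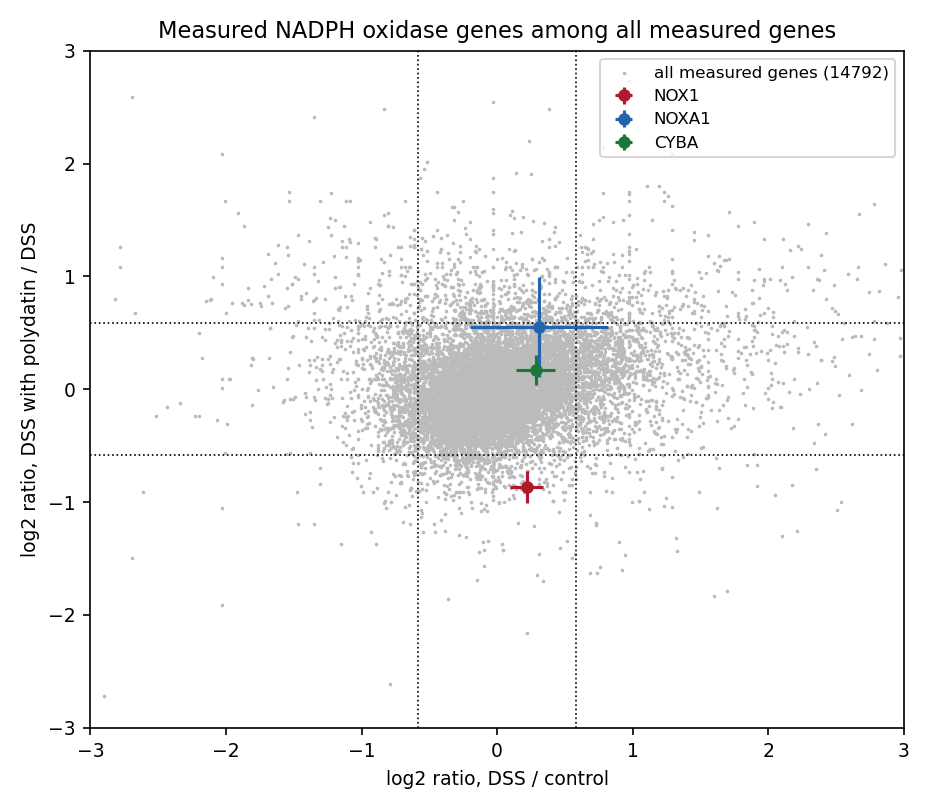
Log2 ratio of DSS with polydatin to DSS (y axis) against log2 ratio of DSS to control (x axis) for NOX1, NOXA1 and CYBA with 95% counting intervals, over all 14792 measured genes in grey, of which 54 lie outside the plotted range, and dotted lines at 1.5-fold. NOX1 at -0.86 on the y axis lies under the dotted line, while CYBA at 0.17 and NOXA1 at 0.55 lie above 0, and all 3 lie within 1.5-fold on the x axis. The axes share the DSS library.

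The balance between NOX1 and its partners within a library does not depend on how libraries are scaled, but it keeps any trend with GC content. The ratio of NOX1 to CYBA counts was 0.632 (0.570 to 0.700) in DSS with polydatin, 1.30 (1.19 to 1.41) in DSS and 1.36 (1.23 to 1.496) in control. Relative to DSS it was therefore 0.488 (0.426 to 0.559) in DSS with polydatin, whereas DSS relative to control gave 0.954 (0.837 to 1.09), an interval that includes 1. The ratio of NOX1 to NOXA1 counts was 5.72 in DSS with polydatin, 15.2 in DSS and 16.2 in control. Its value in DSS with polydatin relative to DSS was 0.376 (0.272 to 0.518). For NOXA1 relative to CYBA the same comparison gave 1.30 (0.945 to 1.79), an interval that includes 1. These are measured differences between transcripts, and the amount or activity of the protein complex was not measured. The joint trend with GC content and transcript length was not removed from these pair ratios. With it removed, log2 ratios of DSS with polydatin to DSS were -0.78 for NOX1, 0.06 for CYBA and 0.34 for NOXA1. As measured they were -0.86, 0.17 and 0.55, so NOX1 lay closer to its partners after removal.

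Per length, the order of levels depended on the length used. With the length of all annotated exons, NOX1 stood at 54.8 TPM (counts per length, scaled to the same total in each library) in DSS with polydatin, 91.1 in DSS and 75.7 in control, and CYBA at 65.3, 53.0 and 42.0 TPM in the same order. NOX1 was thus below CYBA with polydatin and above it in the other libraries. With the length of the longest transcript, NOX1 was below CYBA in all 3, at 0.354 of its level in DSS with polydatin, 0.725 in DSS and 0.759 in control. NOXA1 was lower, at 14.4, 9.02 and 7.05 TPM, and NOXO1 at 1.80, 1.00 and 0.18 TPM in that order of libraries.

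Of the other NADPH oxidases and subunits, 11 are reported, of which 6 were measured. None of these 6 was called for DSS with polydatin against DSS or for DSS against control. CYBC1, a chaperone needed for the phagocyte oxidase and CYBA, had 829 counts in DSS with polydatin, 724 in DSS and 541 in control. CYBC1 was called higher only for DSS with polydatin against control at 1.60 (1.43 to 1.78), beside 16% of all measured genes. CYBB, the phagocyte oxidase NOX2, held 11, 18 and 22 counts and NOX5, a calcium-activated oxidase, 29, 29 and 23 in the order DSS with polydatin, DSS, control, neither past a call. NOX3, NOX4, NCF1 and NCF4 each had at most 2 counts in any library.

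Markers of cell types that carry the phagocyte oxidase were counted beside these genes. Of 10 leukocyte markers, PTPRC, FCGR3A, S100A8 and SPI1 were at 0 in all 3 libraries. The summed level of the list was 13.7 CPM in DSS with polydatin, 9.61 in DSS and 7.21 in control, so it stood in the same order as CYBC1, CYBA and NOXA1, and its part in their levels was not tested. CSF1R and CD163 made up most of the difference between the first 2 libraries, with 84 and 60 counts in DSS with polydatin against 44 and 27 in DSS, while CD14 had 41 counts in DSS with polydatin and 64 in DSS. Summed fibroblast markers were at 61.4, 55.0 and 68.2 CPM and endothelial markers at 13.5, 17.5 and 24.9 CPM in the order DSS with polydatin, DSS, control, with the endothelial KDR at 0. Both measured endothelial markers were called, in opposite directions, PECAM1 lower at 166, 297 and 443 counts and VWF higher at 68, 22 and 9 counts in that order.

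**Figure D3:**
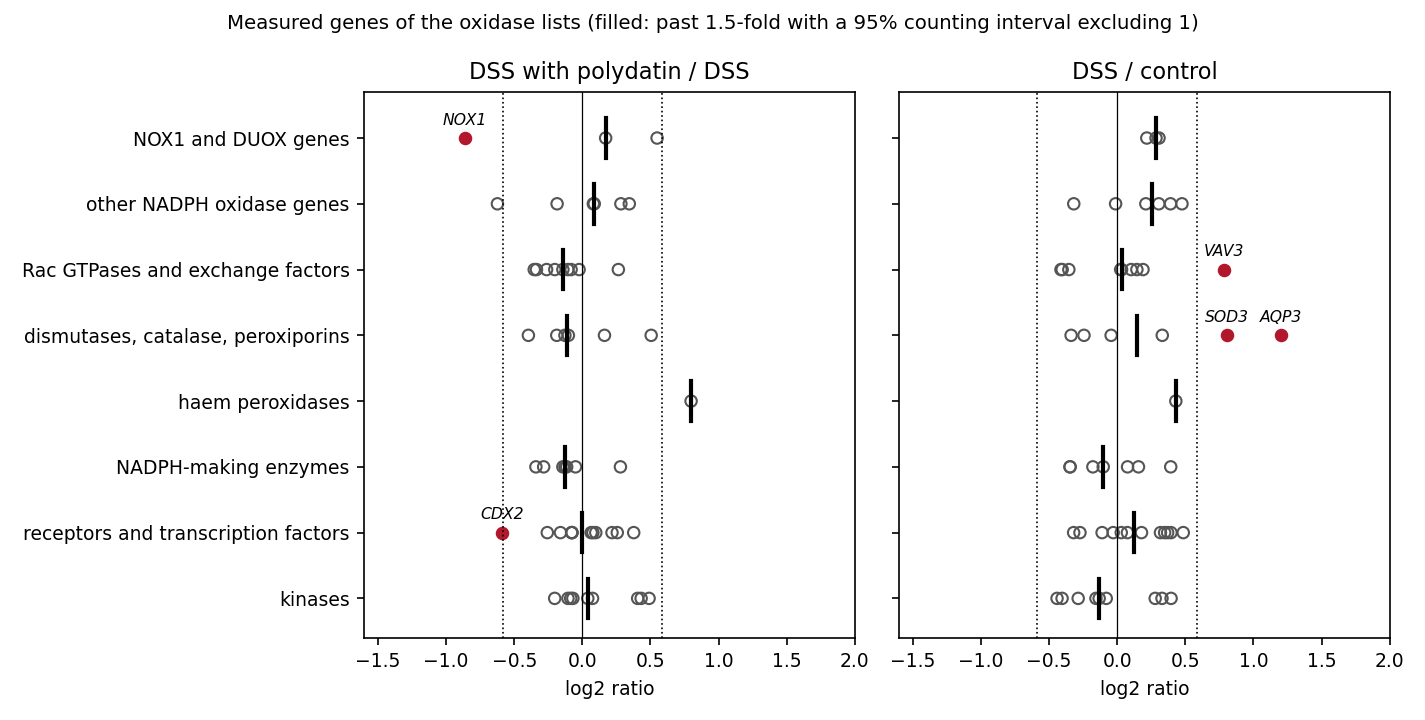
Log2 ratio of each measured gene reported from the NADPH oxidase list and the 7 pathway lists, for DSS with polydatin against DSS (left) and DSS against control (right), with called genes filled and named, black ticks at the list medians and dotted lines at 1.5-fold. NOX1 at -0.86 is the lowest point of the left panel.

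The small GTPases and exchange factors that act on the NOX1 complex held 9 measured genes of 11. None was called for DSS with polydatin against DSS, and 1 was called higher for DSS against control. RAC1, the GTPase of the complex, had 4235 counts in DSS with polydatin, 4764 in DSS and 4587 in control, a ratio of 0.945 (0.906 to 0.985) for DSS with polydatin against DSS and 1.02 (0.977 to 1.06) for DSS against control. Relative to RAC1, NOX1 stood at 0.582 (0.522 to 0.648) of its DSS value in DSS with polydatin. VAV3, an exchange factor for Rac GTPases, was the called gene, with 540 counts in DSS with polydatin, 660 in DSS and 375 in control and a ratio of DSS to control of 1.72 (1.52 to 1.96).

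Enzymes that act on the products were described next. Of 9 dismutases, catalase and peroxide-conducting aquaporins 6 were measured, with 2 called higher for DSS against control and none in either direction for DSS with polydatin against DSS. AQP3, a water and glycerol channel that also passes hydrogen peroxide, had 752 counts in DSS with polydatin, 563 in DSS and 240 in control. Its ratio was 1.42 (1.27 to 1.59) for DSS with polydatin against DSS and 2.30 (1.97 to 2.69) for DSS against control. SOD3, the extracellular superoxide dismutase, had 79, 75 and 42 counts in the order DSS with polydatin, DSS, control, with a ratio of DSS to control of 1.75 (1.18 to 2.62) that was no longer called once the joint trend with GC content and transcript length was removed, at 1.38. Catalase (CAT) had 804 counts in DSS with polydatin, 1124 in DSS and 1136 in control, a ratio of 0.760 (0.693 to 0.833) for the first comparison. Among 5 haem peroxidases only PXDN was measured, at 18, 11 and 8 counts in that order, with no call.

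The 7 genes reported from the list named NADPH-making enzymes were all measured, and none of them was called in either main comparison. ME2 and MTHFD1 of that list were called lower for DSS with polydatin against control at 0.646 and 0.622, beside 12.4% of all measured genes. That comparison called genes of other lists too. Among them were CDX2 at 0.533 and TIAM1 at 0.652, both lower, and AQP3 at 3.26 and SOD3 at 1.96, both higher.

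Receptors and factors known to drive NOX1 or DUOX transcription were reported for 14 genes. Of these 12 were measured, and 1 was called lower for DSS with polydatin against DSS, the intestinal homeobox factor CDX2. CDX2 had 1365 counts in DSS with polydatin, 2180 in DSS and 2666 in control. The ratio of DSS with polydatin to DSS was 0.665 (0.621 to 0.712), close to the fold for a call and 0.707 under total-count scaling, where the call was lost. Unlike NOX1, CDX2 was lower in DSS than in control, at 0.801 (0.757 to 0.848). GATA6, another factor that acts on NOX1, had 1443 counts in DSS with polydatin, 1619 in DSS and 1402 in control, with a ratio of 0.947 (0.882 to 1.02) for the first comparison. Relative to CDX2, NOX1 in DSS with polydatin was at 0.826 (0.732 to 0.932) of its DSS value, and relative to GATA6 at 0.580 (0.513 to 0.656). The kinases that act on NOX1 subunits, 9 of 10 measured, gave no call in either main comparison.

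The lists were also summarised by their medians. The median log2 ratio for DSS with polydatin against DSS was 0.17 over the 3 measured oxidase genes, 0.08 over the other oxidases reported, -0.14 over the GTPases, -0.12 over the dismutase and channel list, -0.13 over the NADPH-making enzymes, -0.01 over the receptors and factors and 0.04 over the kinases, with the single measured haem peroxidase, PXDN, at 0.80, against -0.01 over all 14792 measured genes. The median of the 3 oxidase genes and the ratio of NOX1 thus had opposite signs. PXDN reached 1 CPM only in DSS with polydatin, so the filter favoured a higher ratio there. Its ratio of DSS with polydatin to DSS, 1.74 (0.778 to 4.07), had an interval that included 1.

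The ratios of all genes moved with GC content, which touches these genes because they differ in it. The longest NOX1 transcript has a GC content of 44.0%, that of CYBA 61.3% and that of NOXA1 70.0%. Genes with a GC content of 40 to 45% had a median log2 ratio of -0.08 for DSS with polydatin against DSS and -0.10 for DSS against control, while genes at 60% or more had 0.17 and 0.25. In the GC content range of NOX1, 2.90% of genes were called lower for DSS with polydatin against DSS. After removal of a trend fitted to GC content and transcript length together, NOX1 stood at -0.78 for that comparison, against -0.86 as measured, and at 0.33 for DSS against control, against 0.22 as measured. NOXA1 stood at 0.34 (-0.10 to 0.78) and -0.07 in those comparisons, against 0.55 and 0.31 as measured.

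**Figure D4:**
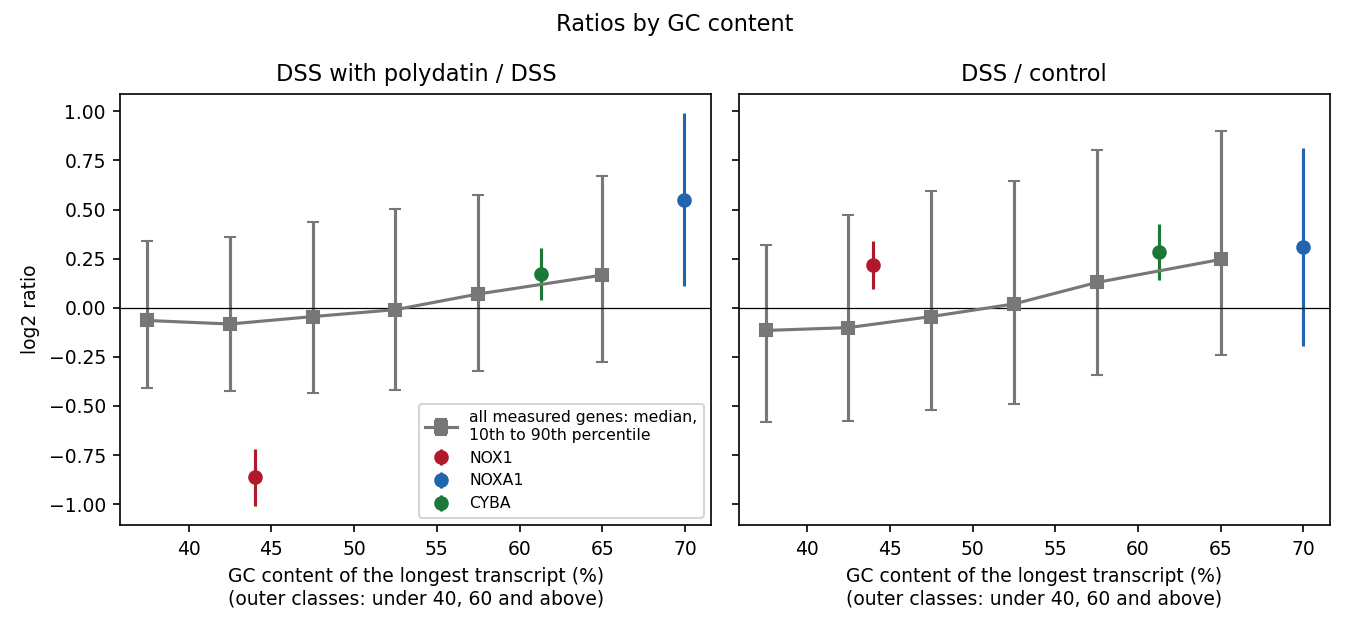
Median log2 ratio of all measured genes by GC content of the longest transcript (squares, with the 10th to 90th percentile as bars), for DSS with polydatin against DSS (left) and DSS against control (right), with NOX1, NOXA1 and CYBA and their 95% counting intervals as coloured points. NOX1 lies at -0.86 where the median of its range is -0.08, while CYBA and NOXA1 lie in the range where the median is 0.17.

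The genes whose pattern over the 3 libraries came closest to each measured oxidase gene were found among 9621 protein-coding genes, by the distance between their pairs of log2 ratios (DSS against control, and DSS with polydatin against DSS). For NOX1 they were DEPDC7 at a distance of 0.0527, SMAD1 at 0.0896 and NOP16 at 0.134. DEPDC7 had 17.7 CPM in DSS with polydatin, 31.6 in DSS and 28.0 in control. For NOXA1 they were ZNF581, TOM1L2 and HEATR5A, at distances of up to 0.0192, and for CYBA RALGPS1, HECTD4 and FAM234A, at up to 0.0122. The closest gene to NOX1 lay farther off, at 0.0527, against 0.0123 for NOXA1 and 0.00457 for CYBA. Such a distance depends on how many genes have similar ratios, and few had a ratio as low as that of NOX1. Counting error also limits which genes come closest. For NOXA1 the log2 ratio of DSS with polydatin to DSS had an interval of 0.11 to 0.99, far wider than these distances.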

How the data were processed

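RNA from 1 library per group was sequenced after Trizol extraction and preparation with a VAHTS Universal kit, per the labels' protocols. The submitters' processing notes name HISAT2 and GRCh38. Not given in the sources used here are the version of HISAT2, how reads were assigned to genes, with which annotation, and whether strand was used. The deposited values are raw read counts per Ensembl gene, whole numbers with no normalization by the authors. Symbols came from a gene name table for 60463 of 60664 identifiers, and coordinates, lengths and GC content from GENCODE release 29. Promoter windows came from RefSeq (GRCh38.p14) and matched all 7 genes.

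From these counts, TMM factors (edgeR 4.0.16, R 4.3.3) of 1.05 for DSS with polydatin, 0.984 for DSS and 0.971 for control scaled the libraries. Ratios of scaled counts with exact Clopper-Pearson intervals were computed in Python 3.11.15 with scipy 1.17.1 and tested on simulated data. No ratio was given where both libraries held 3 counts or fewer, and 0.5 was added to both counts where 1 was 0. TPM used the length of all annotated exons. Since each group is 1 library, intervals cover counting error only. The reads carry no molecular identifiers, so copies of 1 molecule may be counted more than once and the intervals may be too narrow.

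Named genes were all 7 oxidase genes, every pathway list gene called at 1.5-fold in DSS against control or DSS with polydatin against DSS, and the 3 nearest genes per measured oxidase gene by pattern. Other genes named, among them RAC1, CAT, GATA6, CYBB, NOX5, CYBC1, ME2 and MTHFD1, were chosen after their values were seen. For 3 list genes, not reported here whether called or not, list counts and medians leave them out. The genes, lists and tests were chosen with earlier results of these data known. Alternatives were scaling by total counts or by size factors of DESeq2 1.42.0, other filters and folds, thinned libraries, 2 added counts and, chosen after seeing the data, removal of a spline trend of the log2 ratio, fitted with statsmodels 0.14.6 to the length and GC content of the longest transcript.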

Additional observations from a re-analysis of the deposited data

How the results depend on the processing

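In each setting only genes that passed its filter could be called. The main filter was passed by 3 of the 7 genes and by 14792 of all genes. Under total-count scaling, 1 of the 7 genes was called higher for DSS against control, beside 1477 of all measured genes. This was NOXO1, which then passed the filter only through DSS with polydatin, the library of its highest count. For DSS with polydatin against DSS 1 was called higher (NOXA1), beside 1132 of all measured genes. For DSS with polydatin against control 2 were called higher and 0 lower, beside 2957 and 1238 of all measured genes. With no filter on low counts, 1 of the 7 was called higher for DSS against control, beside 1569 of all genes. For DSS with polydatin against control 2 of the 7 were then called higher, beside 2677 of all genes. With a CPM of at least 10, 0 of the 7 were called higher for DSS with polydatin against control, beside 1269 of all genes past that filter. With 2-fold as the threshold 0 were called higher there, beside 1262 of 14792 measured genes. At 2-fold 0 were called lower for DSS with polydatin against DSS, beside 68 measured genes. For DSS with polydatin against control 0 were called lower at 2-fold, beside 483. At a lower threshold of 0.32 on the log2 scale 1 was called higher for DSS with polydatin against DSS, beside 1676 measured genes. At that threshold 2 were called higher for DSS with polydatin against control, beside 3482. After removal of the trend with GC content and length, 0 were called higher and 0 lower for DSS with polydatin against control, and NOX1 was at a log2 ratio of -0.44 there. The cause was not tested, beyond what each filter and threshold sets by construction.

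Total counts in place of TMM moved every log2 ratio by 0.02 for DSS against control, 0.09 for DSS with polydatin against DSS and 0.11 for DSS with polydatin against control. The share of higher genes among those called was then 82.9% for DSS with polydatin against DSS, against 67.5% with TMM, and 70.5% for DSS with polydatin against control, against 56.4% with TMM. Over all measured genes, 797 were called higher and 384 lower for DSS with polydatin against DSS, but 287 and 68 at 2-fold, 1676 and 1552 at the lower threshold, 237 and 234 with a CPM of at least 10, and 234 lower under total counts. For DSS against control 1398 were called higher and 859 lower, but 627 and 261 at 2-fold, 2483 and 2107 at the lower threshold, and 749 and 438 with a CPM of at least 10. For DSS with polydatin against control 2367 were called higher and 1829 lower, but 1262 and 483 at 2-fold, 3482 and 3597 at the lower threshold, and 1269 and 1315 with a CPM of at least 10, so that lower calls were then the more frequent. With no filter 1569 were called higher for DSS against control and 2677 for DSS with polydatin against control, and after removal of the trend 2064 higher and 1532 lower for the second of these. DESeq2 size factors and thinned libraries moved none of the 24 counts and ratios of each setting by more than 1.5 times. With 2 counts added, NOXO1 had a log2 ratio of 1.67 (-0.02 to 3.75) for DSS against control, against 2.43 as measured, and 2.31 for DSS with polydatin against control, against 3.15.

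No paired analysis was possible because each group holds 1 library. No library was left out for the same reason. Differences of NOXO1 and the dual oxidases are limited by their counts.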

Other observations

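Genes within 100 kb of the oxidase genes were looked at, and those named were picked after their values were seen. Beside NOX1, CSTF2, a subunit of the mRNA cleavage stimulation factor, had 486 counts in DSS with polydatin, 732 in DSS and 884 in control, a ratio of DSS with polydatin to DSS of 0.705 (0.628 to 0.792). On the other side of NOX1, XKRX had 322 counts in DSS with polydatin, 344 in DSS and 232 in control, and its ratio of 0.995 (0.852 to 1.16) included 1. Neither neighbour reached 1.5-fold in that comparison.

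Beside NOXO1, the synaptic vesicle gene SYNGR3 had 75 counts in DSS with polydatin, 54 in DSS and 13 in control, in the same order as NOXO1, with a ratio of DSS to control of 4.07 (2.19 to 8.13). NPW was also in that order, with 32, 28 and 22 counts, and so were ZNF598 and SLC9A3R2 on the CPM scale. Some other genes there stood in other orders. GFER, nearer to NOXO1, had 442 counts in DSS with polydatin, 487 in DSS and 391 in control. NTHL1 had 188, 295 and 329 counts in the same order of libraries. Beside NOXA1, ENTPD8, an ectonucleotidase gene, had 69 counts in DSS with polydatin, 64 in DSS and 25 in control, with a ratio of DSS to control of 2.51 (1.56 to 4.16). Beside CYBA, MVD, an enzyme of the mevalonate pathway, had 1911 counts in DSS with polydatin, 1671 in DSS and 672 in control, while ZC3H18 had 1014, 1248 and 1285 in that order. At the dual oxidase locus, SORD (sorbitol dehydrogenase) had 865 counts in DSS with polydatin, 1300 in DSS and 1476 in control.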
